A study of Rattus norvegicus with 6 samples.

Results

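The predicted miRNAs of rat primary sertoli cells were examined in the miRNA-Seq counts. These are the entries that the authors listed as mature miRNAs under names beginning with novel_mir, so they were chosen by their name and not by any measured value. There were 61 of them among 734 mature miRNAs, and the other 673 carried the names of known rat miRNAs. The samples were 3 cultures without 4-nonylphenol (4-NP), an alkylphenol with estrogen-like action, and 3 treated with 0.5 mM 4-NP for 24 h. All cells came from the testes of Sprague-Dawley rats of 5 to 10 days and were passaged before treatment. The sources used here do not say whether the animals were pooled, whether the replicates were separate isolations or what vehicle the control cultures received. The p-values below therefore measure the spread between these samples, which may be technical.

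A miRNA is cut from a hairpin that folds within a longer transcript. Drosha releases the hairpin in the nucleus, Dicer trims it to a short duplex in the cytoplasm, and the retained strand guides an Argonaute protein to its targets through the seed near its 5′ end. Prediction programs look for short reads that stack on a genomic sequence able to fold in this way. An entry made so is a candidate, because fragments of other RNAs can also lie on sequence that folds, and its products and targets have not been established. No mature sequence, hairpin or genomic position of the predicted miRNAs was in the sources used here. They are therefore described by name and counts, and no seed family or function is given for any of them.

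The samples had 20023200 to 23426742 reads on mature miRNAs, and no pair of replicates agreed within counting noise. Levels are given in CPM, for which the reads of a miRNA were scaled to the sum of all mature miRNA reads of the sample. The listed sertoli cell miRNAs had reads in every sample, except for miR-202-3p, which had a value of 0 in 4-NP sample 3. Group means of miR-202-5p were 1030 CPM for controls and 746 CPM for treated samples. For miR-202-3p they were 1.98 CPM for controls and 3.39 CPM for treated samples. Summed over 4 sertoli cell miRNAs, levels were 1380 to 1890 CPM in control samples and 1210 to 1400 CPM in treated ones. Some of the other marker lists differed between the groups. The 9 testis and germ cell miRNAs summed to 627 to 775 CPM in control samples and 196 to 224 CPM in treated ones, with 5 lower and 2 higher at an adjusted p under 0.05. The 2 endothelial miRNAs summed to 6330 to 7620 CPM against 3240 to 3800 CPM, and both were lower. The 2 erythroid miRNAs summed to 11 to 40.2 CPM against 59.0 to 629 CPM, with 1 higher. The 2 smooth muscle or myoid miRNAs summed to 121000 to 136000 CPM against 88400 to 96600 CPM, with 1 lower. No member of the myeloid list of 1 (1.99 to 3.32 against 1.90 to 10.9 CPM), the liver list of 1 (0.0427 to 0.538 against 0.271 to 21.7 CPM) or the striated muscle list of 3 (14.0 to 19.5 against 13.2 to 14.8 CPM) passed that test, and no group of samples had a listed marker at 0 throughout. The part of such cells in the values of the predicted miRNAs was not tested, and fewer cells of a type cannot be told apart from less RNA per cell.

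The counts of predicted miRNAs had a lower limit that those of known miRNAs did not have. Of the 366 values (61 miRNAs in 6 samples), 97 were 0, none lay between 1 and 9 reads, and the smallest value above 0 was 10 reads, which occurred 20 times. Known miRNAs had 694 of 4038 values between 1 and 9 reads. A value of 0 for a predicted miRNA can therefore stand for up to 9 reads, and it is called "listed at 0" here. A count of 10 reads corresponded to 0.427 to 0.499 CPM, depending on the sample. The table gives a second number beside each count, named for molecular identifiers, which ran from 1 to 10 for the predicted miRNAs with reads. No count was under 10 reads for each unit of it. Where it was 2 the smallest count was 25 reads (44 values), and where it was 3 the smallest was 48 reads (23 values). If the limit was applied to each unit separately, a 0 could stand for more than 9 reads. These are limits of the listed counts and measure neither counting error nor the spread between replicates.

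**Figure D1:**
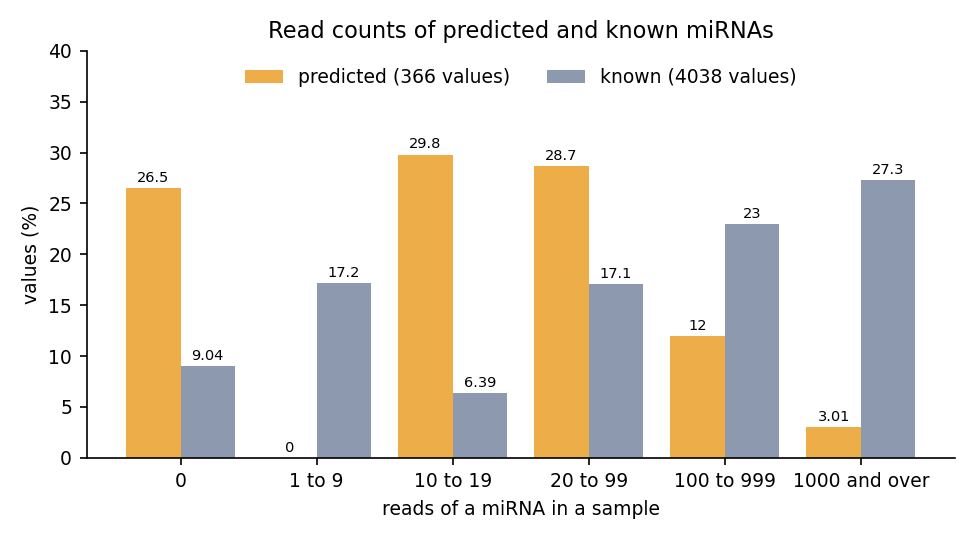
Share of values (y axis, %) in each class of read count (x axis) for the 61 predicted miRNAs (366 values) and the 673 known miRNAs (4038 values) in 6 samples. The predicted miRNAs have no value from 1 to 9 reads, where the known miRNAs have 17.2% of theirs, and 29.8% of their values lie from 10 to 19 reads.

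Most predicted miRNAs were scarce. Their mean level over the 6 samples ran from 0.0938 to 148 CPM with a median of 0.799 CPM, against a median of 4.89 CPM for the known miRNAs. Of the 61, 51 (83.6%) were under 5 CPM, compared with 338 (50.2%) of the known miRNAs, and 1 (1.64%) reached 50 CPM, compared with 184 (27.3%). The single most abundant, novel_mir1, held 35.7 to 48.9% of all reads on predicted miRNAs in a sample, and the 10 most abundant held 84.7 to 89.3%. In the whole set of mature miRNAs, 123 known miRNAs had a higher mean level than novel_mir1.

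The plot of every predicted miRNA in every sample shows how soon the levels reach the limit. Of the 61, 29 were listed above 0 in all 6 samples, 5 in 5 samples, 7 in 4, 7 in 3, 8 in 2 and 5 in a single sample. Of the 32 that were listed at 0 in at least 1 sample, 28 had no count of 30 reads or more anywhere. The number listed above 0 was 44, 48 and 39 in control samples 1, 2 and 3 and 51, 41 and 46 in 4-NP samples 1, 2 and 3. The groups overlapped, with a mean of 43.7 ± 4.51 for controls and 46 ± 5.0 for treated samples (SD, n = 3 per group, exact permutation test, two-sided p = 0.7, where 3 samples against 3 allow no p under 0.1).

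**Figure D2:**
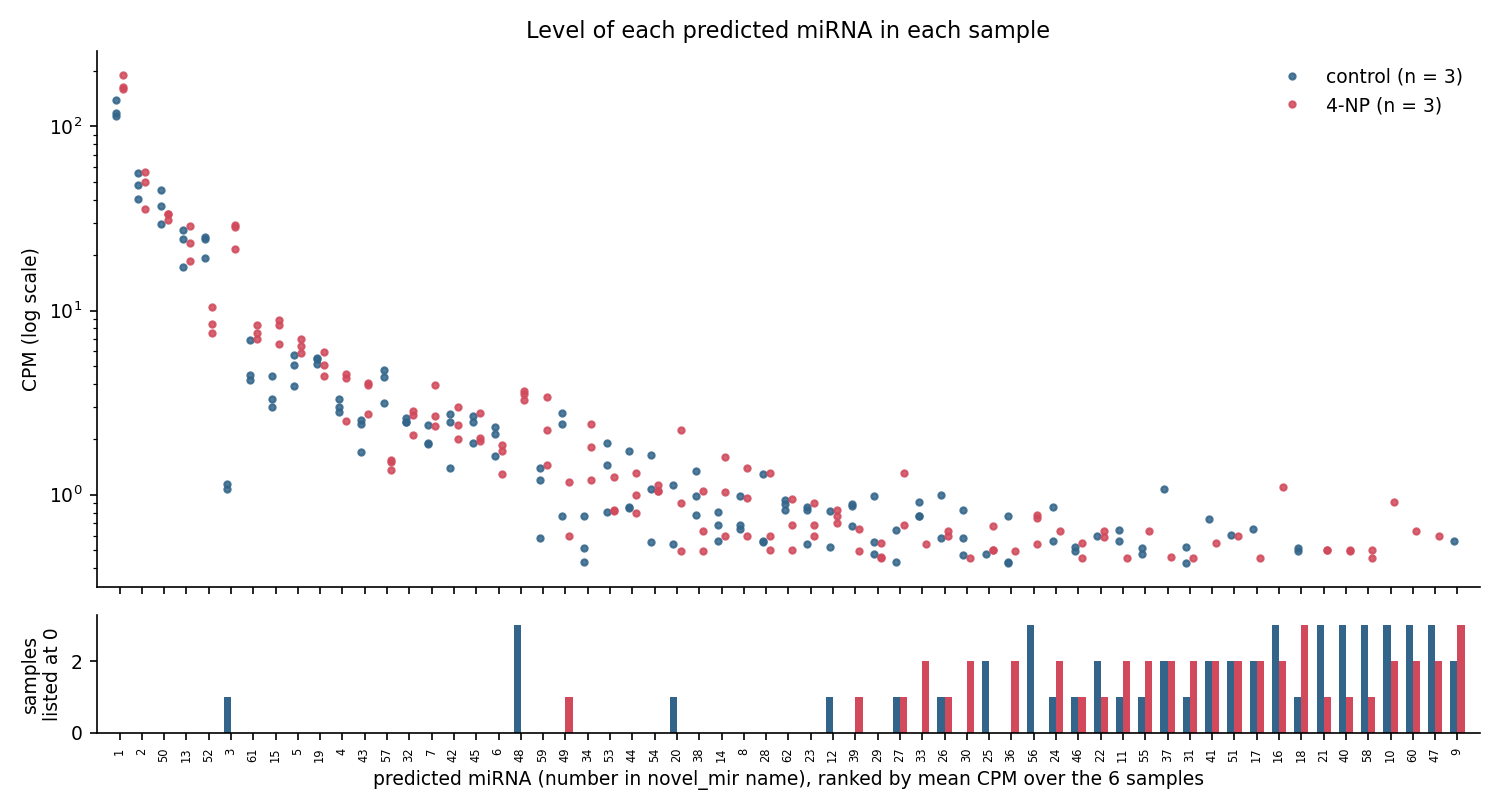
Upper panel, level of each of the 61 predicted miRNAs (x axis, ranked by mean CPM) in each of 3 control and 3 4-NP samples (y axis, CPM on a log scale); lower panel, number of samples of each group in which it is listed at 0, for which no point is drawn. Levels fall from 190 CPM for novel_mir1 to a lowest listed value of 0.427 CPM, and the controls of novel_mir3 and novel_mir48 are low or listed at 0 where the treated samples are not.

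Taken as a group, the predicted miRNAs took a larger share of the mature miRNA reads in the 4-NP-treated samples. The share was 0.0316, 0.0319 and 0.0316% in control samples 1, 2 and 3 and 0.0399, 0.0388 and 0.0366% in 4-NP samples 1, 2 and 3. Every treated sample was above every control (difference 0.00671 percentage points, exact permutation test, two-sided p = 0.1, the smallest that 3 against 3 allow). Most of this difference lay in novel_mir1 and novel_mir3, and the omissions of novel_mir3 were added after the values were seen. Without novel_mir1 the groups overlapped (0.0193 ± 0.00149% against 0.0213 ± 0.00221%, SD, n = 3 each, exact permutation p = 0.4). Without novel_mir3 alone, every treated sample stayed above every control (0.0316 ± 0.00020% against 0.0358 ± 0.00131%, SD, n = 3 per group, exact permutation p = 0.1). Without both, the share was 0.0192 ± 0.00154% in the controls and 0.0187 ± 0.00210% after 4-NP (SD, n = 3 each, exact permutation p = 0.8).

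**Figure D3:**
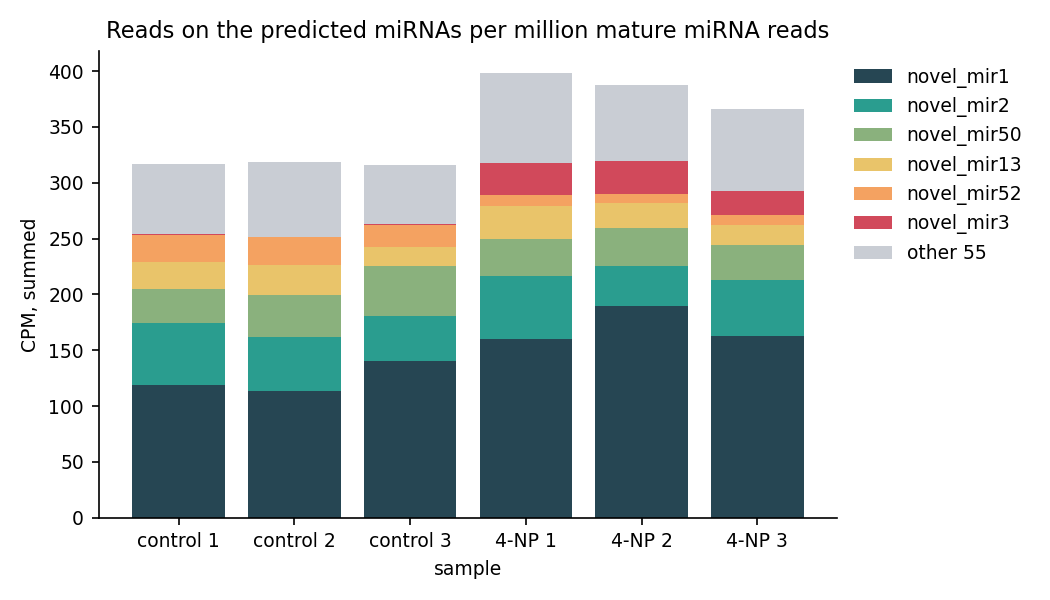
Summed level of the predicted miRNAs (y axis, CPM) in each sample (x axis), split into the 6 most abundant and the other 55. The bars reach 316 to 319 CPM in the controls and 366 to 399 CPM after 4-NP, the segment of novel_mir3 appears in the treated samples, and that of novel_mir52 is narrower there.

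The change of each predicted miRNA was then tested in edgeR with the quasi-likelihood method on 3 samples per group, fitted to all mature miRNAs. Enough reads for the test were found for 46 of the 61. The other 15 had at most 25 reads in any sample and were listed above 0 in at most 4 samples. Of the 46, 5 rose and 2 fell after 4-NP at a Benjamini-Hochberg adjusted p under 0.05 over all 549 tested miRNAs. These are 10.9% and 4.35% of the tested members, beside 7.47% called higher and 12.8% called lower among all tested miRNAs (20.2% in either direction). At the study's thresholds, which ask for a 2-fold difference and an unadjusted p under 0.05, 6 were higher and 2 lower, beside 5.83% and 9.84% of all tested miRNAs (15.7% in either direction). The sixth was novel_mir59, named here after its values were seen, whose log2 fold change was 1.17 ± 0.43 (SE) at an edgeR adjusted p of 0.105. Fitted log2 fold changes had a median of -0.03 over the 46 and of -0.02 over all 549.

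**Figure D4:**
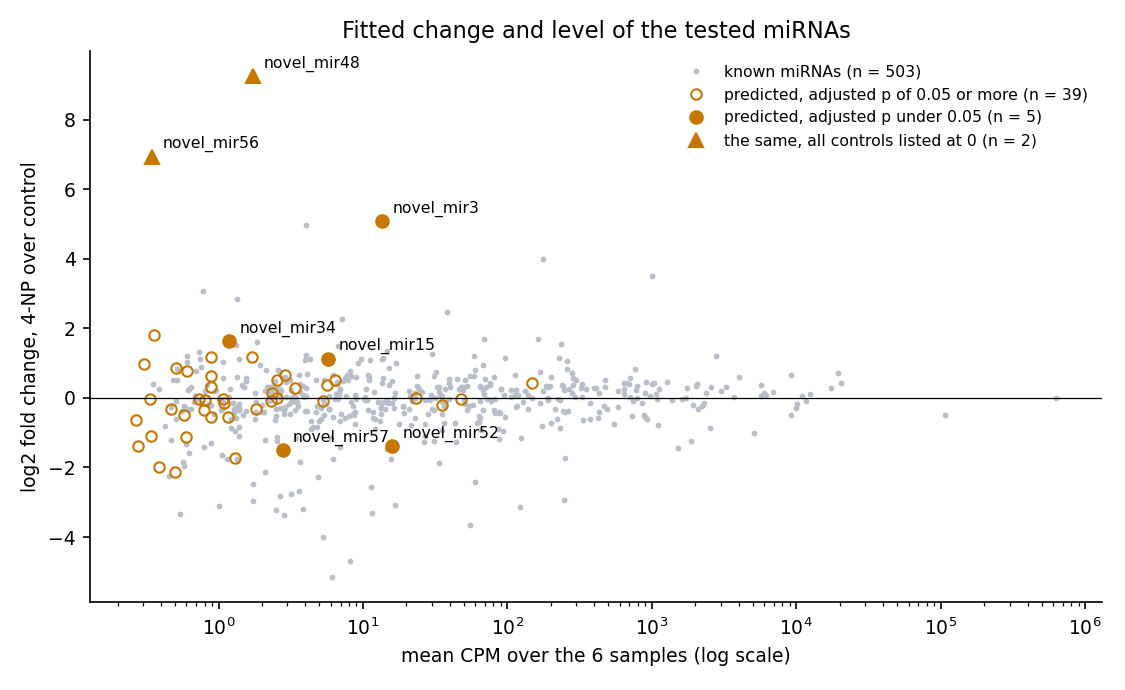
Fitted log2 fold change of 4-NP over control (y axis) against mean level over the 6 samples (x axis, CPM on a log scale) for 503 known and 46 predicted miRNAs. Triangles mark novel_mir48 and novel_mir56, whose controls are all listed at 0, so that their heights of 9.26 and 6.94 depend on the prior count of the fit and are no measured folds.

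The largest rise that could be measured on both sides was that of novel_mir3. Its counts were 27, 0 and 24 reads for control samples 1, 2 and 3, but 634, 585 and 473 reads for 4-NP samples 1, 2 and 3. In CPM these are 1.15, 0 and 1.08 against 28.6, 29.2 and 21.6, so the lowest treated sample was far above the highest control. The fitted log2 fold change was 5.08 ± 0.91 (SE), at an adjusted p of 0.00946 in edgeR. With 1 control listed at 0, the controls alone did not have enough reads for the test. As novel_mir3 was tested because of its treated samples, this p-value is no support beyond the counts themselves. With a replicate block the edgeR adjusted p was 0.0529, so the call was lost. With the 0 of control sample 2 set to 9 reads, a setting added after the values were seen, the log2 fold change was 4.86. Its standard error of 0.44 was smaller and the adjusted p was 0.00049 in edgeR, but both follow from the replaced 0 and are no added support. The ratio of mean CPM in that setting was 30.3. The second number beside these counts was 1 in the controls with reads and 2 in each treated sample, and a 0 that stood for 18 reads would leave a ratio of 26.4.

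A further predicted miRNA, novel_mir48, was listed at 0 in all controls and had 81, 65 and 77 reads in 4-NP samples 1, 2 and 3, or 3.66, 3.25 and 3.52 CPM. The edgeR adjusted p was 0.000487 and stayed under 0.05 in every alternative in which novel_mir48 was tested (0.0268 at most). It was not tested where at least 10 reads were required in every sample. It had enough reads for the test through the treated samples alone, so these p-values are no support beyond the counts themselves. The size of this rise depends on what a 0 can hide. If each control had 9 reads, the level after 4-NP was 8.85-fold higher, with a fitted log2 fold change of 3.11 ± 0.20 (SE) and an edgeR adjusted p of 0.000188. That setting gives all controls the same count and so removes their spread. Its standard error and p-value are therefore no added support for the rise. The second number beside its counts was 4, 4 and 5 in the treated samples. If a 0 stood for 9 reads in each of 5 units, or 45 reads, the treated samples were 1.77-fold higher.

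The call of novel_mir56 depended on how a 0 is read. It was listed at 0 in all controls and had 12, 15 and 17 reads after 4-NP, or 0.542, 0.749 and 0.776 CPM. This miRNA, too, had enough reads for the test through the treated samples alone. The edgeR adjusted p was 0.00991, but 0.0961 with each 0 set to 9 reads, when the ratio of mean CPM was 1.76. The edgeR adjusted p was also above 0.05 without 4-NP replicate 2 (0.0502) and with a replicate block (0.108).

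The other 2 rises had reads in every sample. For novel_mir15, the controls had 103, 76 and 67 reads, while the treated samples had 196, 168 and 145. Its mean level went from 3.56 ± 0.735 CPM to 7.96 ± 1.18 CPM (SD, n = 3 per group), without overlap. This is a log2 fold change of 1.13 ± 0.21 (SE) with an edgeR adjusted p of 0.011, and it was called under every alternative (adjusted p of 0.0438 at most). For novel_mir34, control counts of 12, 10 and 17 reads stood against treated counts of 40, 24 and 53 reads, which are 0.569 ± 0.172 and 1.81 ± 0.611 CPM (SD, n = 3 per group). The log2 fold change of 1.64 ± 0.41 (SE) had an edgeR adjusted p of 0.031, and the control counts lay close to the limit. This call was lost when control replicate 1 (adjusted p = 0.101), control replicate 2 (0.101), 4-NP replicate 1 (0.062) or 4-NP replicate 3 (0.0814) was left out. How the predicted miRNAs were numbered is not given in the sources used here. The relation of novel_mir34 to the known miR-34 was not tested.

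Both falls were measured with reads in every sample. novel_mir52, the fifth most abundant predicted miRNA, had 572, 578 and 428 reads in control samples 1, 2 and 3, compared with 232, 152 and 185 in 4-NP samples 1, 2 and 3. Its mean level went from 22.9 ± 3.20 CPM to 8.84 ± 1.49 CPM (SD, n = 3 per group), so the controls were 2.59-fold higher. The log2 fold change was -1.39 ± 0.16 (SE), with an edgeR adjusted p of 0.00189, and ran from -1.50 to -1.21 over all alternatives. For novel_mir57, the controls had 102, 110 and 70 reads, while the treated samples had 34, 30 and 30. This was a change from 4.09 ± 0.844 to 1.47 ± 0.0871 CPM (SD, n = 3 per group), with the controls 2.78-fold higher. The log2 fold change was -1.49 ± 0.19 (SE) at an edgeR adjusted p of 0.00274, and in neither case did the groups overlap. Both calls held under every alternative, and the highest adjusted p was 0.0127 for novel_mir52 and 0.018 for novel_mir57.

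**Figure D5:**
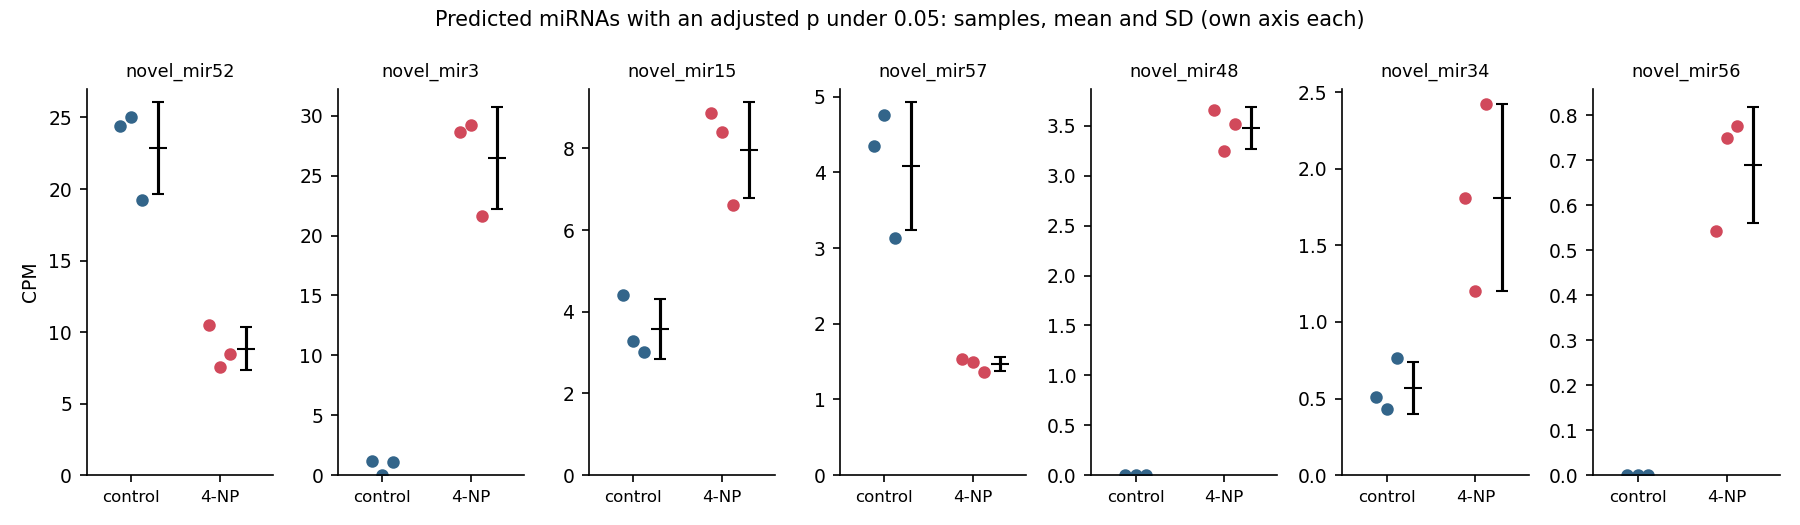
Level (y axis, CPM, a separate axis from 0 for each miRNA) of the 7 predicted miRNAs with an adjusted p under 0.05 in 3 control and 3 4-NP samples; points are samples, and bars are mean and SD where no sample is listed at 0. novel_mir52 and novel_mir57 are lower after 4-NP and the other 5 are higher, and no group overlaps the other.

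The remaining abundant members differed less between the groups. novel_mir1 had control counts of 2780, 2624 and 3124 reads and treated counts of 3552, 3797 and 3567 reads, which are 119, 114 and 140 CPM against 160, 190 and 163 CPM. Every treated sample was above every control, but the log2 fold change of 0.43 ± 0.17 (SE) had an edgeR adjusted p of 0.125. It passed the threshold with DESeq2 (adjusted p = 0.0438). Its coefficient of variation within a group was 11.3% in the controls and 9.45% after 4-NP.

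novel_mir61 had control counts of 163, 97 and 100 reads and treated counts of 185, 152 and 153 reads, giving a log2 fold change of 0.52 ± 0.25 (SE) at an edgeR adjusted p of 0.192. In CPM the groups did not overlap, as control 1 had 6.96 and the lowest treated sample 6.99. Without control replicate 1 its log2 fold change was 0.82 (edgeR adjusted p = 0.0354). novel_mir5 had 91, 132 and 113 reads against 143, 140 and 129, again without overlap in CPM, and its log2 fold change was 0.38 ± 0.16 (SE) at an edgeR adjusted p of 0.143.

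For the next 4 the groups overlapped. novel_mir2 had control counts of 1308, 1109 and 904 reads and treated counts of 1253, 715 and 1091 reads (log2 fold change -0.04, SE 0.22). novel_mir50 had 695, 857 and 1000 reads against 742, 669 and 683 (log2 fold change -0.21, SE 0.18). novel_mir13 had 575, 634 and 385 reads against 636, 465 and 408 (log2 fold change 0.01, SE 0.20). These 3 follow novel_mir1 in abundance, and no difference beyond the replicate spread was found in any of them. For novel_mir19, with 130, 126 and 115 reads against 132, 88 and 111, the log2 fold change was -0.09 ± 0.16 (SE) at an edgeR adjusted p of 0.742.

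The tests were less precise for members listed at 0 in a sample. Most of these were also scarce, so the limit cannot be told apart from low counts. The 29 members with at least 10 reads in every sample had standard errors of 0.16 to 0.54 on the log2 scale (median 0.25), and 13 had a log2 fold change above 0 and 16 below. The 17 tested members with a value listed at 0 had standard errors of 0.46 to 1.50 (median 1.05), with 8 above and 9 below 0. Folds of novel_mir33 and novel_mir30, named after their values were seen, show how much they depend on the reading of a 0. novel_mir33 had control counts of 18, 21 and 17 reads and treated counts of 12, 0 and 0. The fitted log2 fold change of -2.14 ± 1.04 (SE) had an edgeR adjusted p of 0.196, against -0.81 ± 0.22 and 0.0496 with each 0 set to 9 reads. novel_mir30 had 11, 19 and 13 reads against 10, 0 and 0, with a fitted log2 fold change of -2.0 ± 1.05 (SE) at an edgeR adjusted p of 0.219, and of -0.52 ± 0.27 at 0.248 with each 0 set to 9 reads. For both miRNAs, the same value in place of each 0 lowers the standard error by construction.

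The groups did not overlap for 16 of the 46 tested predicted miRNAs, or 34.8%, beside 42.4% of all 549 tested miRNAs. Treated samples were above in 11 (23.9%, beside 19.9% of all) and below in 5 (10.9%, beside 22.6% of all). Of the 11, novel_mir3, novel_mir48, novel_mir56 and novel_mir25 were listed at 0 in at least 1 control. The last was named after its values were seen. Both novel_mir48 and novel_mir56 were tested through the treated samples alone, so their lack of overlap was fixed in advance. The 5 below were novel_mir52, novel_mir57, novel_mir39, novel_mir33 and novel_mir30, of which the last 3 were listed at 0 in at least 1 treated sample. No test of the predicted against the known miRNAs was made.

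Compared within wide ranges of abundance from 0.5 to 50 CPM, the predicted miRNAs varied somewhat more between replicates than the known ones. Among miRNAs with a mean level of 0.5 to 5 CPM and at least 10 reads in every sample, the median coefficient of variation within a group was 24.4% for 20 predicted and 19.2% for 118 known miRNAs. At 5 to 50 CPM it was 16.3% for 8 predicted and 14.8% for 146 known miRNAs. At 50 CPM and over the order was reversed, with 10.4% for 1 predicted and 11.7% for 183 known miRNAs. Levels were not matched inside a range, so lower counts cannot be told apart from a trait of the predicted miRNAs. The share of tested miRNAs called in either direction was 11.5% of 26 predicted and 16.8% of 161 known miRNAs at 0.5 to 5 CPM. At 5 to 50 CPM it was 33.3% of 9 and 25.8% of 151. The median log2 fold changes of predicted and known miRNAs were -0.01 and -0.12 at 0.5 to 5 CPM and 0.01 and -0.05 at 5 to 50 CPM. These are descriptions of the counts and were not tested.

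Several scarce predicted miRNAs were listed above 0 in samples of a single group. Besides novel_mir48 and novel_mir56, 3 were listed in 2 treated samples and no control, and 4 in 1 treated sample and no control. In the other direction, novel_mir18 was listed in 2 controls (12 and 11 reads) and novel_mir9 in 1 control (13 reads) and in no treated sample, both named after their values were seen. These 9 had at most 24 reads in any sample and did not pass the filter on low counts. Fitted without that filter, 4 of the 9 had an unadjusted p under 0.05, and the lowest adjusted p was 0.128 in edgeR. The 9 were picked because their reads fell in a single group, so low p-values are built in and are no support for a difference. In that fit, as for novel_mir56, a 0 was taken as no reads.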

How the data were processed

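The authors cut small RNA from a gel, added adapters that carry molecular identifiers, amplified and sequenced the libraries and deposited 1 table of read counts without normalization. The submitters' processing notes name HISAT2 and DESeq2, and the paper names edgeR. The miRNA database, the genome build and the program behind the predictions are not given in the sources used here. The deposited columns named for molecular identifiers are other values, not numbers of molecules, and entered no test. Totals over genome regions were left out.

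Levels are CPM, counts scaled to the sum of mature counts. Counts of all mature miRNAs were tested in R 4.3.3 with edgeR 4.0.16 (two-sided quasi-likelihood F test, TMM factors of 0.947 to 1.09, filterByExpr, no replicate block, Benjamini-Hochberg adjustment). Standard errors came from the F statistic. Exact permutation tests used scipy 1.17.1. Alternatives were other scalings, filters and library sizes, a replicate block, edgeR's exact test, limma 3.58.1, DESeq2 1.42.0 and the omission of each sample. Setting zeros of predicted miRNAs to 9 reads, setting known counts under 10 to 0 and leaving novel_mir3 out of the summed share were added after the values were seen. Counts were also simulated, with 550 miRNAs fitted and known changes given to a part of them. The fit recovered 50.5% of log2 changes of 1 and 99.0% of log2 changes of 2 (99 miRNAs each). These counts had a common dispersion and no limit of 10 reads, so the rates do not cover predicted miRNAs near that limit.

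Named were the 10 most abundant predicted miRNAs, those with an adjusted p under 0.05 and those listed at 0 in a whole group with over 3 reads in each sample of the other. Markers of sertoli, germ, erythroid, myeloid, endothelial, liver and muscle cells were listed. The members and lists were chosen with earlier results of these data known.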

Additional observations from a re-analysis of the deposited data

How the results depend on the processing

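Of the 7 predicted miRNAs called in the main analysis, all 7 were called with total-count scaling, RLE factors, edgeR's exact test, limma, DESeq2, no filter, all small RNA counts as library size, and the counts of known miRNAs under 10 set to 0. With zeros of predicted miRNAs set to 9 reads, 6 of the 7 were called, all but novel_mir56, and novel_mir33 was called lower. This setting gives every replaced value the same count, which lowers the spread by construction. With at least 10 counts in every sample, 29 members were tested, 2 were called higher, and 3 were higher at the study's thresholds, because novel_mir3, novel_mir48 and novel_mir56 were not tested. Without a filter, 9 were higher and 3 lower at the study's thresholds, as more members were tested. At those thresholds limma on log2(CPM + 1) gave 2 higher, where the pseudocount shrinks low folds, and on log2(CPM + 0.1) it gave 4 lower. With a replicate block 3 were called higher, as edgeR gave adjusted p values of 0.0529 for novel_mir3 and 0.108 for novel_mir56, and it changed no other call. The sources do not say whether same-numbered samples were paired. Such samples had correlations of -0.30, -0.26 and -0.02 between their deviations from the group means, and no sample correlated best with its own number. With 3 samples per group these deviations are bound to balance, so the correlations do not settle whether isolations were shared. Leaving out each sample in turn gave 50 to 53 members tested, 4 to 5 called higher and 2 to 4 lower. These were not always the same members. Without control replicate 1 or control replicate 2, 7 were called, of which 6 were those of the main analysis, as novel_mir34 was lost. Without control replicate 1, novel_mir61 was called in its place. The 4 lower came without 4-NP replicate 1, when novel_mir30 and novel_mir33 were called. Each was then listed at 0 in every treated sample left, and had enough reads for the test through the controls alone. In that fit a 0 was taken as no reads, so these calls are no support beyond the counts themselves. Leaving out each sample also gave 5 to 7 higher and 2 to 4 lower at the study's thresholds. The median log2 fold change was then -0.05 to 0.16. The difference in the share of reads was 0.00596 to 0.00763 percentage points, and that in the number listed above 0 was -0.167 to 4.83. Without novel_mir1 and novel_mir3 the difference in share was -0.000557. Log2 fold changes near 0 changed sign. That of novel_mir13 was -0.04 with at least 10 counts in every sample and -0.16 to 0.13 with a sample left out, and the ranges were -0.15 to 0.21 for novel_mir2 and -0.16 to 0.10 for novel_mir19. The cause of these changes was not tested.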
